A study of Mus musculus with 12 samples.

Results

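The peroxisome proliferator-activated receptors (PPARs), the PGC-1 coactivators that bind them and 5 of their lipid target genes were examined in the corneal endothelium of Slc4a11-/- mice. The set was defined by name, as *Ppara*, *Ppard*, *Pparg*, *Ppargc1a*, *Ppargc1b*, *Pdk4*, *Angptl4*, *Plin2*, *Plin3* and *Ucp2*, and 9 of these 10 genes have values among the 15838 genes of the deposited tables. *Pparg* was not analysed here. Corneal endothelial cells (CEC) were peeled off with Descemet membrane at 10 weeks of age and profiled by RNAseq in 12 libraries, 3 for each of 4 groups. The groups were male Slc4a11+/+ (male WT), female Slc4a11+/+ (female WT), male Slc4a11-/- (male KO) and female Slc4a11-/- (female KO). All were C57BL/6 mice from crosses of heterozygotes. The KO allele lacks several exons in every cell of the body, and no group received a treatment. The sample records describe membranes pooled within a genotype, whereas the methods describe membranes taken as a pair from each mouse. Where mice were pooled, the p-values measure the spread between libraries and not between mice.

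PPARs are nuclear receptors that are activated by fatty acids and their derivatives. Each pairs with a retinoid X receptor (RXR) and binds DNA at a direct repeat of AGGTCA with 1 base between the copies, where it turns on genes for fatty acid uptake, storage and oxidation. PGC-1α, the product of *Ppargc1a*, and PGC-1β, the product of *Ppargc1b*, bind PPARs and other factors and raise the transcription of mitochondrial and fatty acid oxidation genes. CEC are rich in mitochondria, which supply the ion transport that keeps the cornea thin and clear, and SLC4A11 is a transporter of their membranes.

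Of the 9 genes, *Ppargc1a* was the one whose expression changed by the test used here, an adjusted p under 0.05 over all 15838 genes (limma, Benjamini-Hochberg). It fell in male KO mice to 0.360 times the male WT level, a log2FC of -1.48 (standard error (SE) 0.28, n = 3 libraries per group, adjusted p = 0.00961). In female KO mice its log2FC was -0.37 (SE 0.24, adjusted p = 0.470). No receptor and no target gene passed in either sex. All log2FC are KO minus WT on the log2 CPM scale, where CPM is the read count of a gene scaled to the mapped reads of its library.

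The promoter of *Ppargc1a* is shown because it belongs to the gene that changed, that of *Ucp2* because this target had the next smallest p in males, and that of *Plin2* because it is the promoter here that holds the PPAR half-site. The sequences are from RefSeq on GRCm38.p6, run 5′ to 3′ on the strand of the gene and cover the 250 bases before its start. *Ppargc1a* lies at chr5:51567726-51567975 (minus strand), *Ucp2* at chr7:100493108-100493357 (plus strand) and *Plin2* at chr4:86670060-86670309 (minus strand). Capitals mark TGACG, the core of the cAMP response element, in the first and the second sequence and AGGTCA in the last, all 3 of them on the opposite strand.
Ppargc1a: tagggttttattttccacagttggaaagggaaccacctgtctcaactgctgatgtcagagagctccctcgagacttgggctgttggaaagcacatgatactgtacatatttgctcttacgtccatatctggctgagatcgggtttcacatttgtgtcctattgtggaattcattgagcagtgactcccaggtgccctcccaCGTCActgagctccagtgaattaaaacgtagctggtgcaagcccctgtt
Ucp2: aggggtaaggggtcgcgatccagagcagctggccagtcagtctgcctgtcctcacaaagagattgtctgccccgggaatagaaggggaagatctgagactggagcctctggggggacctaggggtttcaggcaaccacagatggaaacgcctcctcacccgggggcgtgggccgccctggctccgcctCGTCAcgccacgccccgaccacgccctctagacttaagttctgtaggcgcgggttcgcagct
Plin2: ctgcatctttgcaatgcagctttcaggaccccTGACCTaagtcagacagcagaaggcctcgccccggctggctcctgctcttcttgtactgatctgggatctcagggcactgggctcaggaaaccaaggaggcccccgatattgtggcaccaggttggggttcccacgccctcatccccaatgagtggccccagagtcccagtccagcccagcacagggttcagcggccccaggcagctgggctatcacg

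RefSeq promoters were searched for 7 of the 9 genes, not for *Angptl4* and *Ppargc1b*. On both strands, AGGTCA occurred in 1 of the 7, *Plin2*, at 218 to 213 bases before the start, and in 14.0% of all 32851 promoters of this length. The full direct repeat with 1 base between (DR1) occurred in none of the 7 and in 0.0335% of all promoters. TGACG occurred in 3 of the 7, in *Ppargc1a* at 49 to 45 bases before the start, in *Ucp2* at 62 to 58 and in *Ppara*, and in 17.8% of all promoters. The full cAMP response element, TGACGTCA, which contains TGACG, and AGAACA, the half-site of the glucocorticoid receptor, occurred in none of the 7, against 1.55% and 16.1% of all promoters. The *Ppargc1a* promoter was 48.0% G and C, that of *Ucp2* 63.6% and that of *Plin2* 61.6%, beside a median of 52.4% over all promoters. These matches describe the letters in the window and are not measured binding.

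The deposited tables hold fitted coefficients only. The depth of the libraries is unknown, single libraries cannot be shown, and the precision of each value is given by its SE and 95% interval. A level for each group was computed from a gene's overall mean and its 3 coefficients, and carries no error. *Slc4a11* itself was lower in KO mice, with a log2FC of -1.83 in males and -2.89 in females (reads outside the deleted exons can still be counted), and all 12 corneal endothelium markers had mean levels between 367 and 7100 CPM. Expressed per kb of exon, the mean levels of the 9 genes ran from 16.6 CPM per kb for *Plin3* over 11.9 for *Ppargc1b*, 11.7 for *Ppard*, 6.93 for *Ucp2*, 5.22 for *Plin2*, 1.09 for *Angptl4*, 0.928 for *Ppara* and 0.701 for *Ppargc1a* to 0.244 for *Pdk4*. In 3 places, neighbours in this order lay closer than their combined spread between libraries (SD, log2 scale), these being *Ppargc1b* and *Ppard*, *Angptl4* and *Ppara*, and *Ppara* and *Ppargc1a*. The library preparation took total RNA, so that reads from unspliced RNA may be part of these levels.

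**Figure D1:**
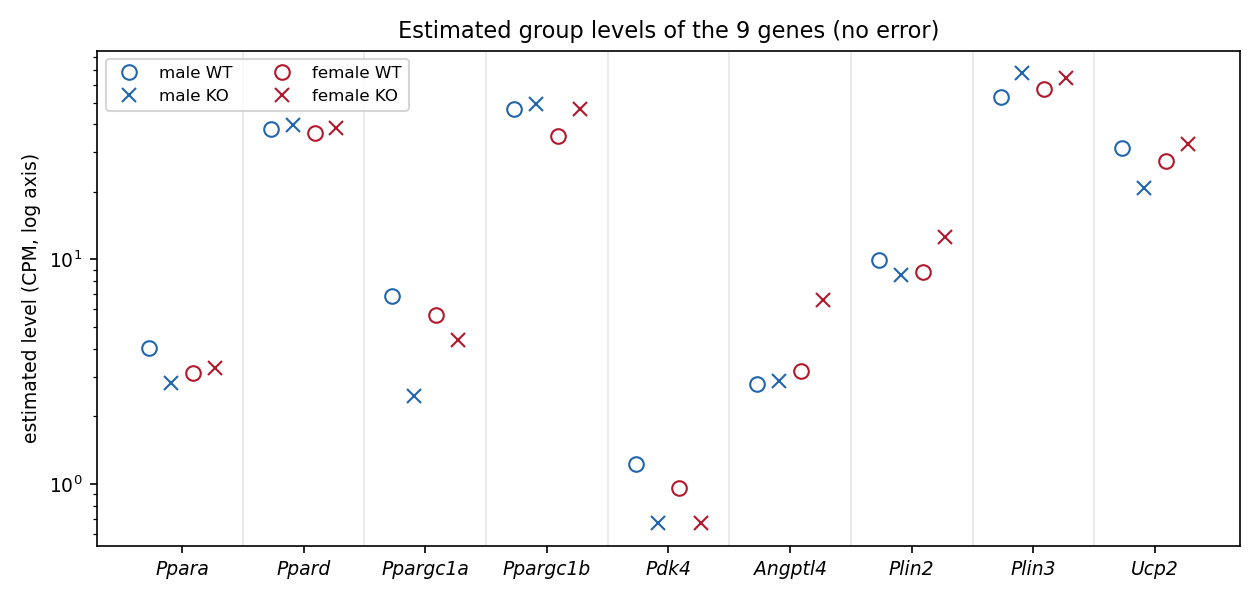
Estimated level of each of the 9 genes (CPM, log axis) in WT (circles) and KO (crosses) males (blue) and females (red), from the deposited coefficients and without an error. *Ppargc1a* is lowest in male KO (2.47 CPM), *Angptl4* is highest in female KO (6.62 CPM), and the 4 levels of *Ppard* lie between 36.7 and 39.6 CPM.

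The receptors were expressed at unlike levels. *Ppara*, the receptor best known for fatty acid oxidation in liver and heart, had estimated levels of 4.02 CPM in WT and 2.82 in KO males, and of 3.11 in WT and 3.30 in KO females. Its log2FC was -0.51 in males (SE 0.25, 95% interval -1.05 to 0.03, adjusted p = 0.252) and 0.09 in females (SE 0.26, -0.47 to 0.64, adjusted p = 0.895). *Ppard*, which is expressed in most tissues, had 38.3 CPM in WT and 39.6 in KO males, and 36.7 in WT and 38.5 in KO females. Its log2FC was 0.05 in males (SE 0.12, -0.20 to 0.30, adjusted p = 0.835) and 0.07 in females (SE 0.12, -0.18 to 0.32, adjusted p = 0.810), and in neither sex did a bound of its interval pass 0.32. The SE of *Ppard* in males was among the smaller ones, with 16.7% of all genes below it. The wider intervals of *Ppara* still contain a fall by 1.05 on the log2 scale in males.

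The coactivators differed from each other. *Ppargc1a* (chr5:51454250-51567726, minus strand) had 6.88 CPM in WT and 2.47 in KO males, and 5.66 in WT and 4.37 in KO females, so that male KO was the low group. The 95% interval of its log2FC was -2.08 to -0.87 in males, below 0 throughout, and -0.89 to 0.14 in females. The call in males was lost with Benjamini-Yekutieli adjustment (adjusted p = 0.0985), with Holm adjustment (adjusted p = 1) and with the deposited t referred to 8 residual degrees of freedom (adjusted p = 0.0568). It ranked 215 of 15838 genes by p in males and 4867 in females. The difference between the sexes, females minus males, was 1.10 (SE 0.37, 95% interval 0.31 to 1.90) with an unadjusted p of 0.0101 and an adjusted p of 0.251 (limma), so a different effect in males and females was not established after adjustment over all genes. Averaged over both sexes, *Ppargc1a* fell by 0.92 on the log2 scale (SE 0.18, adjusted p = 0.00994), to 0.527 times the WT level.

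*Ppargc1b* was expressed at a higher level than *Ppargc1a* per kb of exon and did not pass in either sex. Its estimated levels were 47.0 CPM in WT and 49.1 in KO males, and 35.5 in WT and 47.0 in KO females, so that female WT was the low group. The log2FC was 0.06 in males (SE 0.11, adjusted p = 0.779) and 0.41 in females (SE 0.12, 95% interval 0.15 to 0.66, unadjusted p = 0.00392, adjusted p = 0.105). The mean effect was 0.24 (SE 0.08, adjusted p = 0.0846) and the sex difference of the effect 0.35 (SE 0.16, adjusted p = 0.509). *Pprc1*, which encodes the third PGC-1 family member, had a log2FC of 0.50 in males (SE 0.16, adjusted p = 0.0926) and -0.26 in females (SE 0.16, adjusted p = 0.453). Of the PGC-1 family genes, *Ppargc1a* thus passed in males and the other two did not, and the difference between the genes was not tested.

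**Figure D2:**
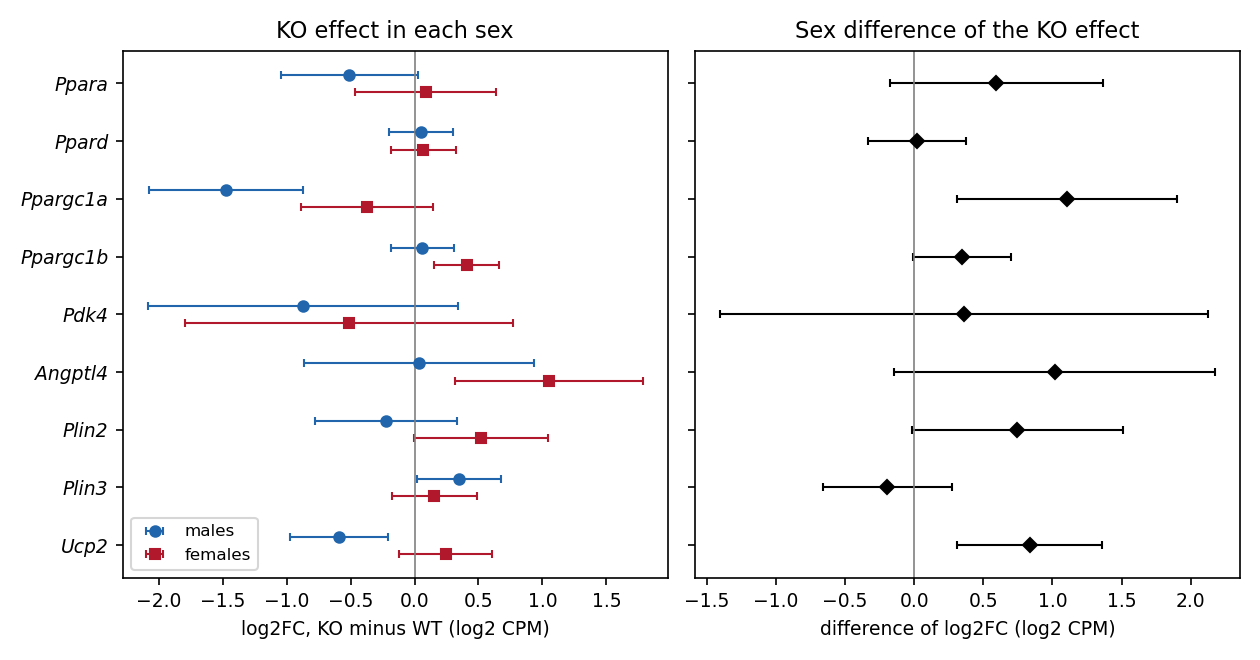
Left, log2FC of each gene (KO minus WT, log2 CPM) in males (circles) and females (squares). Right, the difference of these effects, females minus males (diamonds). Bars are 95% intervals from limma. The interval of *Ppargc1a* in males (-2.08 to -0.87) lies below 0, and 8 of 9 sex differences lie above 0, with intervals that exclude 0 for *Ppargc1a* and *Ucp2*.

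Of the target genes, *Ucp2*, a carrier of the inner mitochondrial membrane, had the smallest p in males. Its estimated levels were 31.3 CPM in WT and 20.8 in KO males, and 27.5 in WT and 32.6 in KO females, so that male KO was the low group. The log2FC was -0.59 in males (SE 0.18, 95% interval -0.97 to -0.21, unadjusted p = 0.00500, adjusted p = 0.0689) and 0.24 in females (SE 0.17, -0.12 to 0.61, adjusted p = 0.498). The sex difference of the effect was 0.84 (SE 0.24, 95% interval 0.31 to 1.36, unadjusted p = 0.00431, adjusted p = 0.175), the smallest p among the 9 genes for this comparison. The 3′ end of *Ucp2* overlaps *Dnajb13* on the opposite strand, which had a mean of 0.853 CPM.

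*Angptl4* encodes a secreted inhibitor of lipoprotein lipase. It had 2.80 CPM in WT and 2.87 in KO males, and 3.20 in WT and 6.62 in KO females, so that female KO stood apart from the other 3 groups. Its log2FC was 0.04 in males (SE 0.42, 95% interval -0.86 to 0.93, adjusted p = 0.969) and 1.05 in females (SE 0.34, 0.32 to 1.78, unadjusted p = 0.00836, adjusted p = 0.147), a fold of 2.07. The sex difference of the effect was 1.02 (SE 0.54, adjusted p = 0.584).

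*Plin2* coats lipid droplets in most cell types. Its estimated levels were 10.0 CPM in WT and 8.56 in KO males, and 8.76 in WT and 12.6 in KO females. The log2FC was -0.22 in males (SE 0.26, adjusted p = 0.629) and 0.52 in females (SE 0.24, 95% interval -0.0037 to 1.05, adjusted p = 0.319), with a sex difference of 0.75 (SE 0.36, adjusted p = 0.509). *Plin3*, a perilipin that moves from the cytosol to forming droplets, had the higher estimated level in both KO groups, at 67.6 CPM against 53.1 in males and 64.1 against 57.6 in females. Its log2FC was 0.35 in males (SE 0.15, unadjusted p = 0.0414, adjusted p = 0.205) and 0.15 in females (SE 0.16, adjusted p = 0.659), and it was the one gene of the 9 with a lower effect in females than in males (-0.19, SE 0.22, adjusted p = 0.893).

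*Pdk4*, the kinase that inhibits pyruvate dehydrogenase when fatty acids are burned, was the least abundant of the 9. It had 1.23 CPM in male WT and 0.95 in female WT and 0.67 in each KO group. Its log2FC was -0.87 in males (SE 0.56, 95% interval -2.09 to 0.34, adjusted p = 0.381) and -0.51 in females (SE 0.60, -1.79 to 0.77, adjusted p = 0.707). The SE in males exceeded that of 91.2% of all genes, so that its change is poorly bounded in both directions.

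Counted together, 1 of the 9 genes passed in males, beside 5.47% of all genes, and none passed in females, where 1.42% of all genes did. For the mean of both sexes 1 of 9 passed, beside 9.07% of all genes, and for the sex difference of the effect none passed, beside 0.543% of all genes. A count of 1 gene in 9 says nothing about the set as a whole beside these shares. At an unadjusted p under 0.05 the counts were 3 in males (*Ppargc1a*, *Ucp2* and *Plin3*), 2 in females (*Ppargc1b* and *Angptl4*) and 2 for the sex difference (*Ppargc1a* and *Ucp2*). At this threshold 21.9% of all genes passed in males, 15.9% in females and 10.2% for the sex difference, so that with 9 genes these counts are near the background too. The median log2FC of the 9 was -0.22 in males and 0.15 in females, beside -0.02 and 0.01 over all genes. The median sex difference of the effect was 0.60, beside 0.02 over all genes, and it was above 0 for 8 of the 9, beside 52.6% of all genes.

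**Figure D3:**
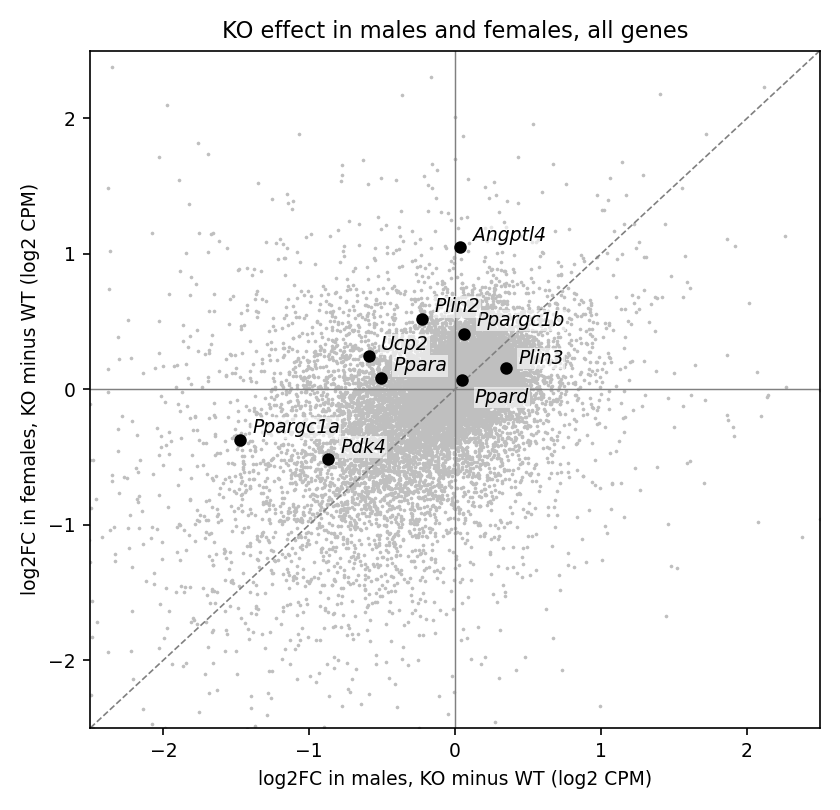
KO effect in males (horizontal axis) against that in females (vertical axis), as log2FC in log2 CPM. Grey points are all genes within 2.5 of 0 on both axes (15645 of 15838), black points the 9 genes, and the dashed line equal effects. *Ppargc1a* and *Ucp2* lie left of 0, *Angptl4* lies above 0, and 8 of the 9 genes lie above the dashed line.

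Between the sexes, none of the 9 genes passed, beside 0.0316% of all genes. The SE of this sex coefficient may include the spread between genotypes, so a gene that did not pass may still differ. The largest sex coefficient, female minus male, was that of *Angptl4* (0.70, SE 0.32, unadjusted p = 0.0456, adjusted p = 0.882). For *Ppargc1b* it was -0.23 (SE 0.11, adjusted p = 0.882), and for *Ppargc1a* 0.27 (SE 0.32, adjusted p = 0.885). Estimated within genotype, females minus males, *Angptl4* differed by 0.19 in WT and 1.21 in KO on the log2 scale, *Ppargc1a* by -0.28 and 0.82, *Ucp2* by -0.18 and 0.65, and *Plin2* by -0.19 and 0.56. These within-genotype differences have no error.

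The partners of the PPARs and of PGC-1 were not called. Of 19 RXR and coregulator genes 18 had values, and none passed in males, females, the mean or the sex difference. At an unadjusted p under 0.05 there were 3 in males, none in females and 2 for the sex difference. Over all genes the shares at this threshold were 21.9%, 15.9% and 10.2%. *Rxra*, the most abundant RXR gene here, had a mean of 125 CPM and a log2FC of 0.13 in males (SE 0.12, adjusted p = 0.548) and 0.16 in females (SE 0.12, adjusted p = 0.547). Of 13 genes for PGC-1 partner factors and mitochondrial transcription 12 had values, and none passed in males (2 at an unadjusted p under 0.05), in females (none) or for the sex difference (none). Among them, *Esrra*, the orphan receptor through which PGC-1α acts on many mitochondrial genes, had a log2FC of -0.06 in males (SE 0.14, adjusted p = 0.845) and 0.14 in females (SE 0.16, adjusted p = 0.685). *Tfam*, which packages and transcribes mitochondrial DNA, had 0.28 (SE 0.16, adjusted p = 0.321) and 0.32 (SE 0.16, adjusted p = 0.351).

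Among 41 other PPAR target genes, 28 had values. In males 1 passed, beside 5.47% of all genes. It was *Acaa2*, the last enzyme of the mitochondrial β-oxidation spiral, with a log2FC of -0.67 (SE 0.13, adjusted p = 0.00932). At an unadjusted p under 0.05 there were 6 of the 28 in males, beside 21.9% of all genes. In males 16 of the 28 were higher in KO, beside 47.2% of all genes. In females none passed (9 at an unadjusted p under 0.05, beside 15.9% of all genes), and 21 of the 28 were higher in KO, beside 50.8% of all genes, with a median log2FC of 0.20, beside 0.01 over all genes. *Acaa2* was also the one that passed for the sex difference of the effect, at 0.98 (SE 0.18, adjusted p = 0.0308), with 0.31 in females (SE 0.12, adjusted p = 0.234). For the mean of both sexes *Acaa1a*, a peroxisomal thiolase named after its values were seen, rose by 0.22 on the log2 scale (adjusted p = 0.0468). *Cpt1a*, the entry step of fatty acids into mitochondria, was also named after its values were seen, with a log2FC of -0.18 in males (SE 0.14, adjusted p = 0.454) and 0.46 in females (SE 0.14, adjusted p = 0.117).

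The paralogs of the 5 targets were taken family by family, and 13 of 16 had values. In the angiopoietin-like family, *Angptl1* fell in males by 0.76 on the log2 scale (SE 0.15, adjusted p = 0.00986) and had -0.47 in females (SE 0.15, adjusted p = 0.126), whereas *Angptl4* did not pass. *Angptl2* had -0.55 in males (SE 0.16, adjusted p = 0.0615) and -0.29 in females (SE 0.16, adjusted p = 0.396), and passed for the mean at -0.42 (adjusted p = 0.0361). *Angptl6* and *Angptl7* did not pass. In the pyruvate dehydrogenase kinases, *Pdk1* had -0.38 in males (SE 0.15, adjusted p = 0.166) and 0.22 in females (SE 0.15, adjusted p = 0.509), and *Pdk2* and *Pdk3* had log2FC between -0.05 and 0.30. *Plin4*, *Plin5* and the uncoupling protein relatives *Slc25a14*, *Slc25a27* and *Slc25a30* did not pass in any comparison.

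Of 18 lipid droplet and lipolysis genes 14 had values, and 3 passed in males, all lower in KO, beside 5.47% of all genes. At an unadjusted p under 0.05 there were 8 of the 14 in males, lower and higher ones, beside 21.9% of all genes. *Lipa*, the acid lipase of lysosomes, fell by 0.69 on the log2 scale (SE 0.10, adjusted p = 0.00209). *G0s2*, an inhibitor of the adipose triglyceride lipase, fell by 1.54 (SE 0.35, adjusted p = 0.0236). *Dgat2*, which makes triglyceride, fell by 1.11 (SE 0.28, adjusted p = 0.0354). For the mean of both sexes these 3 and *Mgll* passed, beside 9.07% of all genes. *Mgll*, a monoglyceride lipase named after its values were seen, had a mean effect of -0.38 (adjusted p = 0.0175). None of the 14 passed in females or for the sex difference, beside 1.42% and 0.543% of all genes. At an unadjusted p under 0.05 there were 1 in females and 2 for the sex difference, beside 15.9% and 10.2% of all genes. The median log2FC of the list in males was 0.00.

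**Figure D4:**
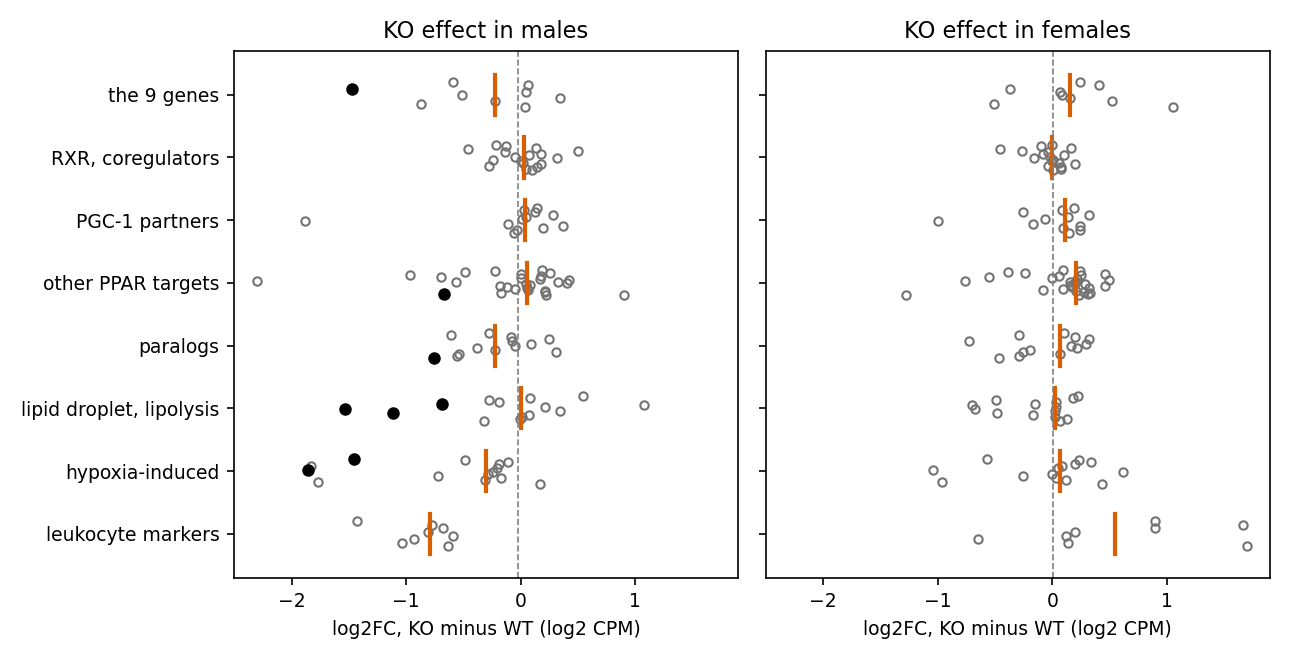
log2FC (KO minus WT, log2 CPM) of each gene of 8 lists in males (left) and females (right). Open points did not pass and filled points passed an adjusted p of 0.05, orange bars are list medians and dashed lines the median of all genes. Filled points occur in males for the 9 genes (*Ppargc1a*), other PPAR targets (*Acaa2*), paralogs (*Angptl1*), lipid droplet and lipolysis genes (3) and hypoxia-induced genes (2), and in females for none of these 8 lists.

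Genes induced by hypoxia and by glucocorticoids were also followed by lists. Of 15 hypoxia-induced genes 14 had values, with 13 lower and 1 higher in male KO, where 47.2% of all genes were higher. Their median log2FC in males was -0.30, beside -0.02 over all genes. In males 2 passed, beside 5.47% of all genes, *Vegfa* (-1.46, adjusted p = 0.0239) and *Ndrg1* (-1.86, adjusted p = 0.0244). In females none of the 14 passed, and 3 had an unadjusted p under 0.05, beside 15.9% of all genes. The sex difference of the effect was above 0 for 14 of 14, beside 52.6% of all genes. None passed for it, and 3 had an unadjusted p under 0.05, beside 10.2% of all genes. The list as a whole was not tested. All 12 glucocorticoid-induced genes had values. Of them *Klf9* passed in males (-0.69, adjusted p = 0.0239), beside 5.47% of all genes, and *Mt1* in females (1.49, adjusted p = 0.0295), beside 1.42%. At an unadjusted p under 0.05 there were 3 in males, 4 in females and 4 for the sex difference, beside 21.9%, 15.9% and 10.2% of all genes. The median log2FC of this list was -0.18 in males and -0.002 in females, and the median sex difference of the effect 0.45. The part of either stimulus in the values of *Ppargc1a*, *Angptl4*, *Plin2* or *Pdk4* was not tested.

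Genes of other cell types moved with genotype as well. All 8 leukocyte markers were lower in male KO and 7 of 8 were higher in female KO, with none passing in either sex (2 and 3 at an unadjusted p under 0.05). Of all genes, 47.2% were higher in KO in males and 50.8% in females. An unadjusted p under 0.05 was reached by 21.9% of all genes in males and 15.9% in females. For the mean of both sexes 1 of the 8 leukocyte markers passed, lower in KO, beside 9.07% of all genes. The sex difference of the effect was above 0 for all 8, beside 52.6% of all genes, with a median of 1.38 beside 0.02. None passed for it, beside 0.543% of all genes, and 4 had an unadjusted p under 0.05, beside 10.2%. The summed level of the leukocyte markers was 67.1 CPM in WT and 38.3 in KO males, and 45.9 in WT and 78.3 in KO females. The estimated levels of *Ppara*, *Plin2* and *Ucp2* had the same direction as this sum in each sex, lower in KO males and higher in KO females. Of the 7 stroma markers with values, all were lower in KO in both sexes and their summed level was 16115 CPM in WT and 11413 in KO males, and 16325 in WT and 8871 in KO females. In males *Aldh1a3* passed among them (adjusted p = 0.0482), beside 5.47% of all genes, and in females none did (7 at an unadjusted p under 0.05). For the mean of both sexes all 7 passed, beside 9.07% of all genes. The 6 iris pigment markers summed to 35.9, 14.2, 46.5 and 6.34 CPM and the 8 epithelium markers to 1558, 1004, 1445 and 784 CPM, in the order WT males, KO males, WT females and KO females. Of the iris pigment markers 3 of 6 passed for the mean, beside the same 9.07% of all genes. None of them passed in males (1 at an unadjusted p under 0.05) or females (6 at an unadjusted p under 0.05). Of the epithelium markers *Aldh3a1* passed in males (adjusted p = 0.0444) and in females (adjusted p = 0.0135). The estimated levels of *Ppargc1a* and *Pdk4* were lower in KO in both sexes, as were the stroma, iris pigment and epithelium sums. The log2FC of *Ppargc1a* was -1.48 in males and -0.37 in females, and that of *Pdk4* -0.87 and -0.51. Both genes thus had the larger estimated fall in males, and the 3 sums had it in females. In the same order of groups, the 3 muscle markers with values summed to 280, 223, 279 and 257 CPM. The 7 lens markers with values summed to 284, 245, 252 and 233 CPM. The 3 nerve and Schwann cell markers with values summed to 8.23, 4.86, 5.37 and 3.47 CPM. These muscle, lens and nerve sums were also lower in KO, with the larger estimated fall in males. *Aldh1a3* and *Aldh3a1* were named after their values were seen. Of 8 adipocyte markers 1 had values, *Lipe*, at a mean of 7.42 CPM. The part of these cells in the values of the 9 genes was not tested, and in such samples fewer cells of a type and less RNA per cell cannot be told apart.

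The genes nearest to *Ppargc1a* in their pair of effects were sought among 14407 genes with a mean of at least 1 CPM, by the Euclidean distance of the log2FC in males and in females. They were *Ecscr* (distance 0.0167), with -1.46 in males and -0.37 in females, and the unclassified transcripts *Gm37121* (0.0512) and *Gm42989* (0.0522). None of the 3 passed in either sex, and their means were 1.92, 2.02 and 2.22 CPM, beside 4.53 CPM for *Ppargc1a*.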

How the data were processed

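The 12 libraries (3 per group) were prepared from total RNA with a stranded low-input kit and sequenced as paired-end reads. Alignment by the authors used HISAT2 and GRCm38. Their counts became CPM after TMM scaling, and by their methods limma-voom models held the terms genotype, sex and interaction. The counter, its strand setting and the annotation release are not given in the sources used here. In the 3 deposited tables the log2FC and mean level are log2 values, t is a score, and p-values stand beside adjusted p-values. Columns of these fits are the authors' own comparisons, and no values per library were at hand, so they are the source of every value here.

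The SE is the log2FC divided by t. The SE ratio of interaction to genotype (median 1.42) and the directions drawn in the study set the coding: genotype is KO minus WT for males, the interaction is females minus males. The effect in females is their sum, with a squared SE equal to the difference of theirs, and the mean effect is genotype plus 0.5 times the interaction. The sex coefficient, female minus male, comes from another fit (14.6 against 13.8 degrees of freedom). For *Slc4a11* its SE was 0.651, beside 0.155 for the mean KO effect. That fit may thus lack a genotype term, and its SE may include the spread between genotypes. Adjusted p-values are Benjamini-Hochberg over 15838 genes, and a gene passed at an adjusted p under 0.05 without a fold threshold. Derivations were tested on simulated data with limma 3.58.1. Levels per kb used exons of coding transcripts in GENCODE M21. The members and lists were chosen with earlier results of these data known. All 10 genes of the set are named. Other lists are given by counts, and some also by the median, with genes that passed in males or females, same-family paralogs and the 3 genes nearest to one that passed. Alternatives were other adjustments, filters on level, a fold threshold, the deposited t on 8 residual degrees of freedom and levels without the sex coefficient. *Rxra*, *Esrra*, *Tfam* and *Pprc1* were named for their roles after their values were seen. Results for some genes of the lists are not reported here.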

Additional observations from a re-analysis of the deposited data

Results flagged for a closer look

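Among the genes named for an adjusted p under 0.05 in males or females, the effect of the knockout differed between the sexes for 1, *Acaa2*, by the interaction term of limma (0.98 on the log2 scale, females minus males, SE 0.18, adjusted p = 0.0308). Its estimated level fell in male KO and was higher in female KO than in female WT, but the effect in females alone did not pass. No value of the 9 PPAR genes met this condition, and outlying libraries could not be sought without values per library.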

How the results depend on the processing

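None of the alternatives run changes a log2FC, but the call of *Ppargc1a* did not hold under all of them. In males the count of genes that passed went from 1 to 0 with Benjamini-Yekutieli adjustment (adjusted p of *Ppargc1a* 0.0985) and with Holm adjustment (adjusted p 1). It also did so with the deposited t referred to 8 residual degrees of freedom (adjusted p 0.0568). There the SE was still that of limma, and an unmoderated test could not be run. For genes with 10 CPM or more on average the count was 0 too, because this filter removes *Ppargc1a* by construction. For the mean of both sexes the count also went from 1 to 0 with Benjamini-Yekutieli (0.102), Holm (1), 8 degrees of freedom (0.0510) and at least 10 CPM, and with a threshold of |log2FC| > 1, which -0.92 does not reach. It stayed at 1 with a mean of at least 1 CPM and, in males, with 1 adjustment over 3 contrasts and with |log2FC| > 1. Counts in females, for the sex difference and for sex stayed at 0 under all alternatives run. Estimated levels with the sex coefficient set to 0 moved by less than the SD of a single library, as derived from the SE, in all 36 cases. That SD is wider than the error of a mean of 3 libraries, so smaller shifts may still exceed that error. No paired analysis was possible because the tables hold no values per library, and for the same reason leaving out a library could not be run. *Pdk4* and then *Angptl4* had the widest intervals of the 9 genes in both sexes, and the cause was not tested.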
